A study of Mus musculus with 3 samples.

Results

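The ERK feedback genes described here are 7 mouse genes, Dusp6, Dusp4, Spry1, Spry2, Spred1, Phlda1 and Etv5, out of 33696 genes in the deposited tables. They were selected on counts of these same libraries, with earlier results in view, and were then listed by name, so their differences between air and ozone are given as descriptions and support nothing further. Their levels were read in immune cells washed from the airspaces of the right lung lobes of wild-type C57BL/6J mice aged 12 weeks. Each mouse breathed filtered air, ozone at 1 ppm or ozone at 1.5 ppm for 3 hours, and its cells were taken 22 to 24 hours afterwards. Cells of 3 to 4 mice were pooled for each group, which gave 1 droplet library per group and no replicate. No test between groups is therefore possible, and every interval below is a 95% interval for counting error only, which leaves out differences between mice, pools and library preparations.

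ERK is the last kinase of a cascade that runs from growth factor and cytokine receptors through Ras, Raf and MEK. Active ERK switches on genes whose products shut the same cascade down, so the RNA of these genes is often read as a record of recent ERK activity. Dual-specificity phosphatases such as Dusp6 remove the activating phosphates from ERK, while Sprouty and Spred proteins act upstream, on Ras and Raf. Alveolar macrophages, the resident phagocytes of the airspace, depend on GM-CSF, whose receptor feeds this cascade among others.

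After barcodes with fewer than 500 unique molecular identifiers (UMIs, 1 per captured RNA molecule), fewer than 300 genes or more than 10% mitochondrial UMIs were left out, the libraries held 3479 cells after filtered air, 2241 after 1 ppm and 6577 after 1.5 ppm. The mitochondrial limit removed 34.2% of barcodes in filtered air, 30.6% at 1 ppm and 9.07% at 1.5 ppm. Alveolar-macrophage-like cells were 95.3%, 95.3% and 86.2% of clustered cells in that order of dose. The 16 alveolar macrophage markers were all detected in this class in each library, but they also named the class, so this cannot support its name. Their summed level was 19463 CPM (UMIs of a gene per 1000000 UMIs of the class) in filtered air, 21330 at 1 ppm and 15074 at 1.5 ppm. The class held 3311, 2121 and 5672 cells with 49672599, 37191134 and 89883452 UMIs, and a median of 13871, 16000 and 13074 UMIs per cell. From 4 to 10 cell barcodes were shared by each pair of libraries. All levels below are CPM over the summed UMIs of this class unless another class is named.

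Dusp6 and Phlda1 were lower in both ozone libraries than in filtered air, while Spred1, Spry1 and Etv5 stayed within 1.5-fold and Dusp4 and Spry2 were barely detected. Of the 7 members, 5 had at least 100 UMIs in every pair of libraries and count as measured. At 1 ppm against filtered air, 2 of those 5 were at least 1.5-fold lower, where 1.85% of all 11720 measured genes were that much lower. At 1.5 ppm against filtered air the same 2 of 5 were at least 1.5-fold lower, where 4.13% of 12556 measured genes were. No measured member was 1.5-fold lower at 1.5 ppm than at 1 ppm, where 2.89% of 12415 measured genes were. The 2 ozone comparisons share the filtered air library, and 0.777% of genes measured in both were 1.5-fold lower in both. The median log2 ratio of the 5 measured members was -0.23 at 1 ppm and -0.40 at 1.5 ppm, beside -0.05 in both comparisons over all measured genes. Each of these member medians is the value of Etv5, whose ratio intervals include 1. At 1.5 ppm Spred1 was at log2 -0.004 and Spry1 at 0.27, so the median does not describe a shift of all members.

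**Figure D1:**
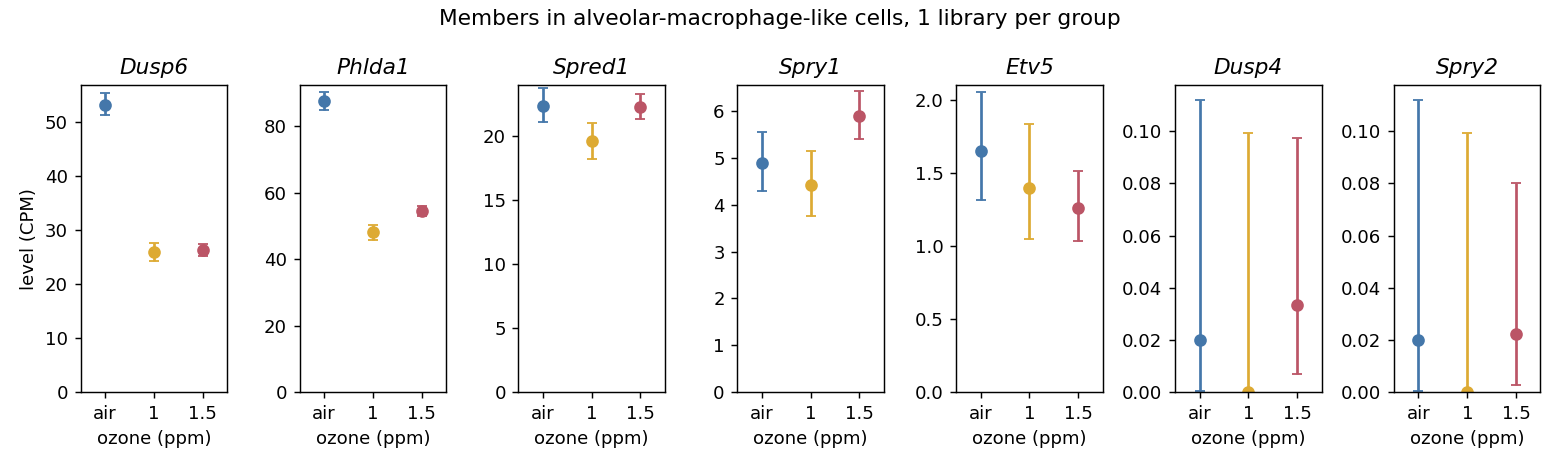
Level of each member in alveolar-macrophage-like cells (vertical axis, CPM, a separate scale for each gene) in the filtered air, 1 ppm and 1.5 ppm libraries (horizontal axis). Points are 1 library each and bars are exact Poisson 95% intervals. Dusp6 stood at 53.2 CPM in filtered air and near 26 CPM at both ozone levels, Phlda1 at 87.5 CPM in filtered air and 48.0 and 54.4 CPM after ozone, and the intervals of Spry1 and Etv5 overlapped between air and both doses.

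Dusp6 encodes a cytoplasmic phosphatase that acts selectively on ERK. It had 2642 UMIs after filtered air, 962 after 1 ppm and 2366 after 1.5 ppm. These gave 53.2 CPM (51.2 to 55.3) in filtered air, 25.9 CPM (24.3 to 27.6) at 1 ppm and 26.3 CPM (25.3 to 27.4) at 1.5 ppm. Both ozone libraries were low and the filtered air library was high, with no overlap of its interval with either. The ratio was 0.486 (0.451 to 0.524, log2 -1.04) for 1 ppm over filtered air and 0.495 (0.468 to 0.523, log2 -1.01) for 1.5 ppm over filtered air. Both ratios were thus just past 2-fold lower, but both intervals extend to either side of 2-fold. By the ratio alone, 0.418% of measured genes were at least 2-fold lower at 1 ppm and 0.749% at 1.5 ppm. A difference between the 2 doses was not detectable at this depth, with a ratio of 1.02 (0.944 to 1.10) for 1.5 ppm over 1 ppm.

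Promoter windows from RefSeq, build GRCm38.p6, were at hand for 5 of the 7 members. The 250 bases before the annotated start are shown for Dusp6 and for Spry1 and Spred1, a set in which Dusp6 differed by more than 1.5-fold between air and ozone and the others did not. Capitals mark the core of the site that ETS transcription factors bind, GGAA on either strand (TTCC as printed). Windows on the plus strand are chr10:99262981-99263230 for Dusp6, chr3:37639697-37639946 for Spry1 and chr2:117120821-117121070 for Spred1.
Dusp6: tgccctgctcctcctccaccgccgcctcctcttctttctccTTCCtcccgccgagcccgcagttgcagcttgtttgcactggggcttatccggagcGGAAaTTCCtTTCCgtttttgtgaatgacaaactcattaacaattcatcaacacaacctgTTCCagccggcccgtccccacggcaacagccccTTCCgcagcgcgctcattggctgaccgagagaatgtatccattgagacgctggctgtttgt
Spry1: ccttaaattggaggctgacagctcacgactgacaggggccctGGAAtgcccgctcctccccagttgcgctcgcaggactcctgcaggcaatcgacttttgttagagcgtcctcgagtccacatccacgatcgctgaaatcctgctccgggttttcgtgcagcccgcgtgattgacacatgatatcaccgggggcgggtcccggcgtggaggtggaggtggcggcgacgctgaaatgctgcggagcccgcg
Spred1: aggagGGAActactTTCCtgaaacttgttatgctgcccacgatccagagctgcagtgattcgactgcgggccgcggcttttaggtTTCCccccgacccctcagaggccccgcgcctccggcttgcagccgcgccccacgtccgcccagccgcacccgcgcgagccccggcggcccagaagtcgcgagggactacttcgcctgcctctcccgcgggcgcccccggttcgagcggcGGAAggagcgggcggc
The Dusp6 window held 6 such cores, at 209, 154, 149, 144, 94 and 61 bases before the start. The Spry1 window held 1 and the Spred1 window 4. Of the windows not printed, that of Spry2 held 3, and those at the annotated Etv5 starts held 0 and 4. No window was at hand for Phlda1, the other member that was lower after ozone, so the counts support no contrast between the members. A core of this length is common, being present in 93.4% of the 32851 promoter windows of the same length. The longer ETS form CCGGAA, which contains that core, was present in 12.0% of windows, the cyclic AMP response element TGACGTCA in 1.55%, its TGACG part in 17.8% and the AP-1 site TGANTCA in 6.75%, and none of these 4 was found on either strand in the 3 printed windows. These matches describe the letters alone, and no binding was measured.

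Dusp4, a nuclear relative of Dusp6 that also acts on ERK, had 1 UMI in filtered air, 0 at 1 ppm and 3 at 1.5 ppm. A count of 0 at 1 ppm allows up to 0.0807 CPM, taking 3 counts as the limit, and up to 0.141% of cells with a UMI. No ratio is given for so few counts. Dusp4 RNA was therefore at the edge of detection in macrophages of all 3 libraries.

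Spry1, a Sprouty protein that blocks signalling between receptors and Raf, had 243 UMIs in filtered air, 164 at 1 ppm and 530 at 1.5 ppm. Its level was 4.89 CPM (4.30 to 5.55) in filtered air, 4.41 CPM (3.76 to 5.14) at 1 ppm and 5.90 CPM (5.41 to 6.42) at 1.5 ppm. It lay 1.34-fold (1.12 to 1.60) higher at 1.5 ppm than at 1 ppm and 1.21-fold (1.03 to 1.41) higher at 1.5 ppm than in filtered air, both short of 1.5-fold. Its ratio of 1 ppm over filtered air was 0.901 (0.735 to 1.10), an interval that includes 1. Where each cluster was given the weight it had in filtered air, an alternative chosen after seeing the data, the log2 ratio of 1.5 ppm over filtered air was 0.61, past 1.5-fold. Spry1 thus showed no lower level at 1.5 ppm, the dose at which Dusp6 was near 0.5 of its filtered air level.

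Spry2, its close relative and an inhibitor of receptor tyrosine kinase signalling, had 1 UMI in filtered air, 0 at 1 ppm and 2 at 1.5 ppm. At 1 ppm, 0 of 2121 cells allows a share of up to 0.141% of cells with a UMI. As with Dusp4, no comparison between doses can be made for it in macrophages.

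Spred1, a membrane protein that brings the Ras inhibitor neurofibromin to Ras, had 1109 UMIs in filtered air, 727 at 1 ppm and 2002 at 1.5 ppm. Its level was 22.3 CPM (21.0 to 23.7) in filtered air, 19.5 CPM (18.2 to 21.0) at 1 ppm and 22.3 CPM (21.3 to 23.3) at 1.5 ppm. The 1 ppm library was the low one, by a ratio of 0.876 (0.796 to 0.962) to filtered air. At 1.5 ppm the ratio to filtered air was 0.998 (0.927 to 1.07), the closest to 1 of the measured members.

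Phlda1 encodes a small pleckstrin-homology protein whose RNA is induced by growth factors through ERK. It had 4346 UMIs in filtered air, 1787 at 1 ppm and 4891 at 1.5 ppm. Its level was 87.5 CPM (84.9 to 90.1) in filtered air, 48.0 CPM (45.8 to 50.3) at 1 ppm and 54.4 CPM (52.9 to 56.0) at 1.5 ppm. As for Dusp6, the filtered air library was the high one and its interval overlapped neither ozone library. The ratio was 0.549 (0.519 to 0.580, log2 -0.86) for 1 ppm and 0.622 (0.597 to 0.648, log2 -0.69) for 1.5 ppm, each over filtered air. Unlike Dusp6, Phlda1 was slightly higher at 1.5 ppm than at 1 ppm, by 1.13-fold (1.07 to 1.20).

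Etv5, an ETS transcription factor of the PEA3 group that is itself induced by ERK, had 82 UMIs in filtered air, 52 at 1 ppm and 113 at 1.5 ppm. Its level was 1.65 CPM (1.31 to 2.05) in filtered air, 1.40 CPM (1.04 to 1.83) at 1 ppm and 1.26 CPM (1.04 to 1.51) at 1.5 ppm. It was highest in filtered air and lowest at 1.5 ppm, but the ratios of 0.847 (0.587 to 1.21) for 1 ppm over filtered air and 0.762 (0.568 to 1.03) for 1.5 ppm over filtered air had intervals that include 1. With clusters weighted as in filtered air the log2 ratio at 1.5 ppm was -0.77, past 1.5-fold. At an equal depth of 5000 UMIs per cell the order was the reverse. Etv5 was then detected in 0.614% of cells in filtered air, 0.670% at 1 ppm and 0.691% at 1.5 ppm, with overlapping intervals. The Etv5 count was too small to show a difference of the size seen for Spred1.

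The difference in Dusp6 and Phlda1 was also read cell by cell, after each cell was thinned to 5000 UMIs so that depth was equal. Thinning left out 55 cells of filtered air, 33 of 1 ppm and 317 of 1.5 ppm that were shallower. Dusp6 was then detected in 21.8% of cells (20.4 to 23.3) after filtered air, 12.7% (11.3 to 14.2) after 1 ppm and 12.8% (12.0 to 13.8) after 1.5 ppm. Without thinning the shares were 45.1%, 30.5% and 28.5%. Cells with 3 or more Dusp6 UMIs after thinning were 31 of 3256 in filtered air (0.952%), 3 of 2088 at 1 ppm (0.144%) and 7 of 5355 at 1.5 ppm (0.131%). The lower level after ozone was therefore seen both in how many cells had a Dusp6 molecule and in how many had several.

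Phlda1 was detected after thinning in 33.1% of cells (31.5 to 34.8) in filtered air, 19.7% (18.0 to 21.5) at 1 ppm and 22.7% (21.6 to 23.9) at 1.5 ppm. Without thinning it was found in 58.9%, 45.4% and 45.1%. Spred1 was detected after thinning in 10.2% (9.21 to 11.3), 9.20% (7.99 to 10.5) and 9.82% (9.04 to 10.7) of cells, so its intervals overlapped at all doses. Spry1 was detected in 2.49%, 2.16% and 3.17% of thinned cells and Etv5 in 0.614%, 0.670% and 0.691%. In other classes, where RNA from burst cells can add UMIs, the unthinned Dusp6 share varied. Over all libraries it was 35.3% of C1q macrophage-like cells, against 33.8% of alveolar-macrophage-like cells. It was 31.8% in a neutrophil-like cluster, number 15, with a median of 2492 UMIs. In the remaining classes the share was lower. It was 0 of 26 cells in filtered air, 0 of 14 at 1 ppm and 4 of 49 at 1.5 ppm (8.16%) in migratory dendritic cell-like cells, whose median over all libraries was 9640 UMIs. Over all libraries it was 12 of 144 airway epithelial-like cells (8.33%, median 2273 UMIs).

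**Figure D2:**
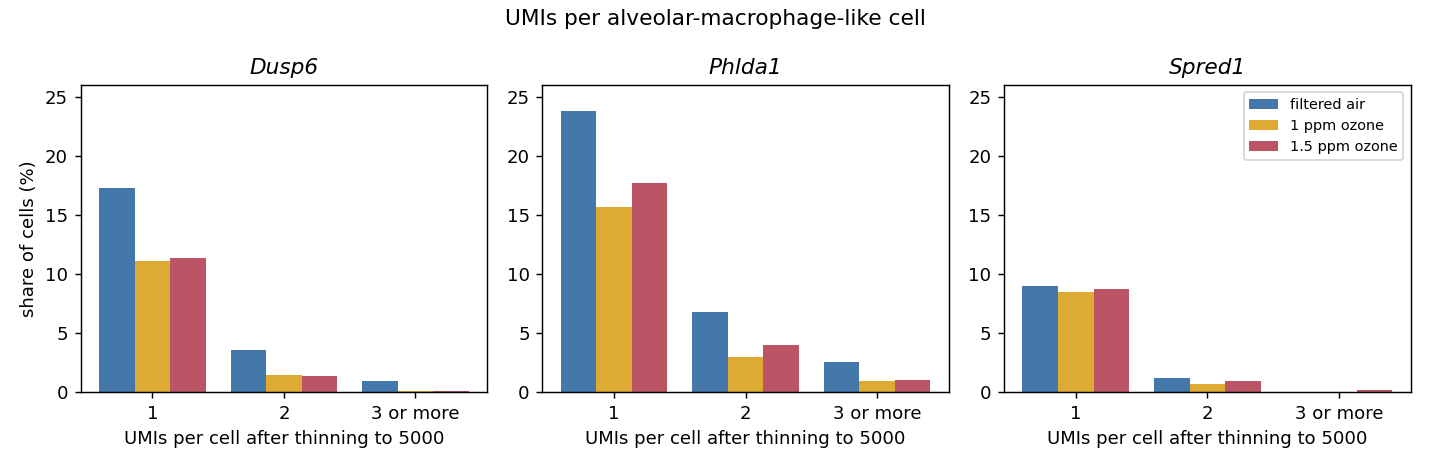
Share of alveolar-macrophage-like cells (vertical axis, percent) with 1, 2 or 3 or more UMIs of Dusp6, Phlda1 or Spred1 (horizontal axis) after thinning each cell to 5000 UMIs, in the filtered air, 1 ppm and 1.5 ppm libraries. For Dusp6 the share with 1 UMI was 17.3% in filtered air and near 11% after either ozone dose, for Phlda1 23.8%, 15.7% and 17.7%, and the Spred1 bars were nearly level.

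Dusp6 and Phlda1 tended to be found in the same macrophages, weakly. In thinned filtered air cells Phlda1 was detected in 40.8% (37.2 to 44.5) of those with a Dusp6 UMI and in 31.0% (29.2 to 32.8) of those without. At 1 ppm the shares were 24.1% (19.1 to 29.7) and 19.0% (17.3 to 20.9), whose intervals overlapped, and at 1.5 ppm 29.9% (26.5 to 33.5) and 21.7% (20.5 to 22.9). Among macrophages with no Dusp6 UMI after thinning, Phlda1 was also detected less often after ozone than in air. Such cells can still hold Dusp6 RNA, since in filtered air 45.1% of cells had a Dusp6 UMI before thinning and 21.8% after it. These shares therefore cannot show whether the lower Phlda1 level extended to cells without Dusp6. For Dusp6 with Spred1 and for Dusp6 with Spry1 the intervals of the shares with and without overlapped in every library.

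Among genes of at least 20 CPM in each library, those whose level per cell most resembled that of Dusp6 were ranked by the lowest Pearson r of the 3 libraries over alveolar-macrophage-like cells. Of 6209 genes the first 10 were Cytip, AI504432, Dab2, Gm34907, Ptpn12, Mrc1, Zfp608, Runx1, Rin2 and Adipor2. Their lowest r ran between 0.108 and 0.167, which is weak, and cells of 1 library share its preparation and its range of depth. Cytip, a scaffold protein of blood cells, came first, with r of 0.216 in filtered air, 0.170 at 1 ppm and 0.167 at 1.5 ppm over the cells of each. Its own level was 590 CPM in filtered air, 419 CPM at 1 ppm and 443 CPM at 1.5 ppm. Mrc1, the mannose receptor and one of the markers that name the class, was the sixth. Its log2 ratio to filtered air was -0.15 at 1 ppm and -0.40 at 1.5 ppm, smaller in size than that of Dusp6.

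Alveolar-macrophage-like cells fell into 12 clusters, which were made without any gene of the ERK lists, and the members varied between them within the filtered air library alone. Of these, 10 held at least 50 filtered air cells, and the levels that follow are for those. Dusp6 was highest in cluster 0, led by Dnah11, Lepr and Patj, at 67.5 CPM (64.1 to 71.0). It was lowest in cluster 4, led by the metallothionein genes Mt2 and Mt1, at 20.9 CPM (17.0 to 25.4), and in cluster 12, led by Slc7a11 and Hmox1, genes of the oxidative stress response, at 21.5 CPM (15.5 to 28.9). The last 2 did not differ beyond their intervals. Phlda1 was likewise low in both, at 30.4 CPM (25.6 to 35.7) in cluster 4 and, from 50 UMIs, between 18.5 and 32.9 CPM in cluster 12, against 104 CPM in cluster 0 and 117 CPM in cluster 3, led by Apoc1 and Pltp. Spry1 had 6.97 CPM in cluster 0, 1.05 CPM in cluster 4 from 5 UMIs and 0.499 CPM in cluster 12 from 1 UMI. The metallothionein and stress clusters thus had low levels of these 3 members in the filtered air library. Cluster 9, led by Rgcc and Slc39a2, was also low in Dusp6, at 28.6 CPM (22.0 to 36.5). Its Spry1 was 0.894 CPM from 2 UMIs, while its Phlda1 was 84.5 CPM. Cluster 12 met the naming rule for only 6 of the 16 alveolar macrophage markers.

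The libraries sat largely in different clusters. Cluster 0 held 1450 cells of filtered air, 587 of 1 ppm and 114 of 1.5 ppm, while cluster 1, led by H2bc4 and Epcam, held 46, 34 and 1639. Cluster 1, the largest of the 1.5 ppm library, could therefore not be compared, and its 1.5 ppm cells had 34.4 CPM of Dusp6 (31.8 to 37.1) and 78.9 CPM of Phlda1 (from 1554 UMIs). In the clusters that could be compared, Dusp6 and Phlda1 were lower after ozone, as they were over the class. At 1 ppm against filtered air, 9 clusters had at least 50 cells in both libraries, and Dusp6 was lower in all 9, with ratios between 0.434 and 0.808 and intervals below 1 in 8. At 1.5 ppm it was lower in all 10 such clusters, with ratios between 0.316 and 0.777 and intervals below 1 in 8. Phlda1 was lower in 9 of 9 at 1 ppm (0.458 to 0.746, intervals below 1 in 7) and in 10 of 10 at 1.5 ppm (0.569 to 0.917, intervals below 1 in 8). In cluster 0, Dusp6 stood at 67.5 CPM in filtered air, 32.2 CPM at 1 ppm and 34.7 CPM at 1.5 ppm. In cluster 5, led by H1f5, Pclaf and Top2a, genes of dividing cells, it stood at 42.1 CPM in filtered air, 20.3 CPM at 1 ppm and 19.8 CPM at 1.5 ppm. The weakest separation at 1.5 ppm was in cluster 4, at 16.2 CPM against 20.9 CPM in filtered air, a ratio of 0.777 (0.605 to 1.00), and in cluster 9, a ratio of 0.776 (0.439 to 1.31).

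Clusters of 1 library share that library, so their agreement in direction is not replication. Split by depth instead, Dusp6 was below its filtered air level in all 4 quartiles of UMIs per cell at both doses, with ratios between 0.462 and 0.547 at 1 ppm and between 0.475 and 0.588 at 1.5 ppm. Phlda1 was also lower in 4 of 4 quartiles at both doses. Spred1 showed no such pattern at 1.5 ppm, being lower in 5 of 10 clusters with ratios between 0.451 and 2.00. At 1 ppm it was lower in 8 of 9 clusters, with intervals below 1 in 2, and in 3 of 4 quartiles. Spry1 was higher at 1.5 ppm in 6 of the 8 clusters with enough UMIs, but its interval lay above 1 in only 1. The median mitochondrial share of the class was 4.12% in filtered air, 3.97% at 1 ppm and 2.31% at 1.5 ppm. In cells of 2.5 to 4% mitochondrial UMIs alone, the log2 ratio of Dusp6 was -0.98 at 1 ppm and -0.95 at 1.5 ppm, each over filtered air.

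**Figure D3:**
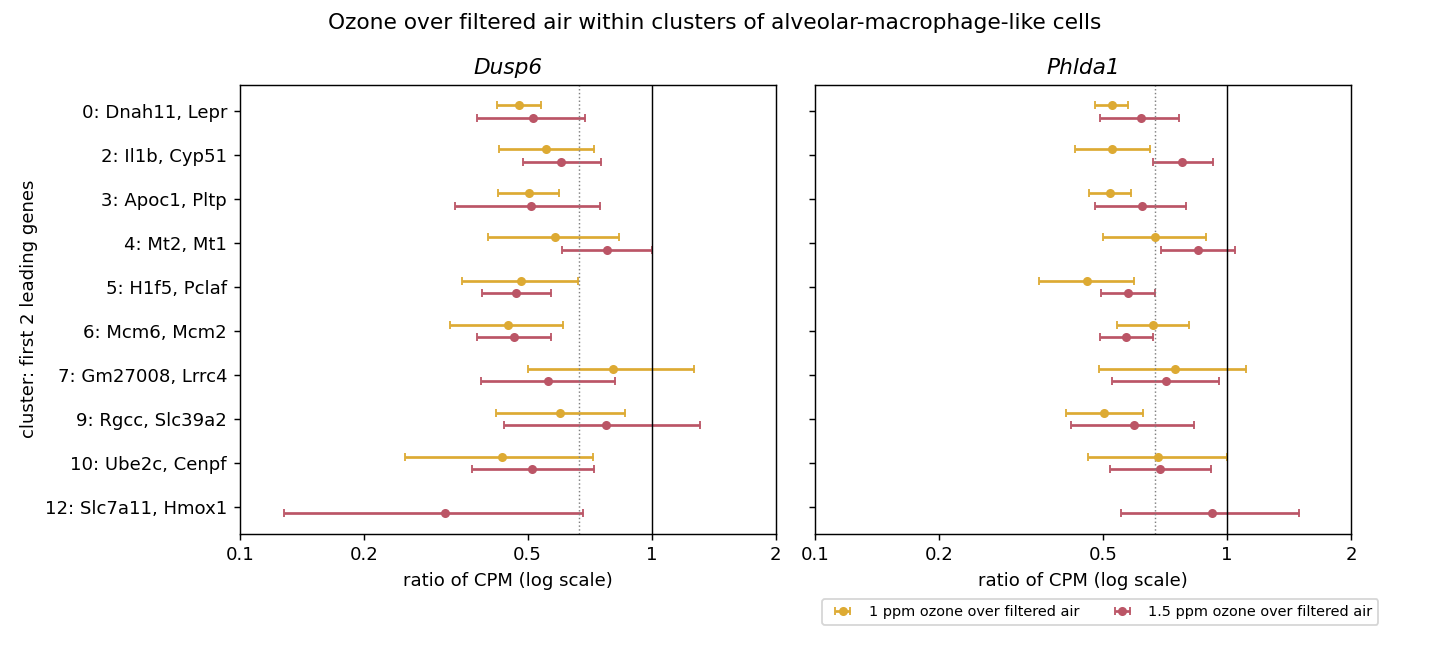
Ratio of CPM for ozone over filtered air (horizontal axis, log scale) of Dusp6 and Phlda1 within each cluster of alveolar-macrophage-like cells that had at least 50 cells in both libraries (vertical axis, cluster number and 2 of its leading genes). Points are ratios at 1 ppm and 1.5 ppm, bars are exact conditional 95% intervals, the solid line is a ratio of 1 and the dotted line marks 1.5-fold lower; every point lies left of the solid line.

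Outside the macrophages the members had other patterns, given here with the 3 libraries pooled because the classes were small. Spred1 reached 270 CPM (239 to 304) in the 89 migratory dendritic cell-like cells, with a UMI in 71.9% of them, and 125 CPM (108 to 143) in the 153 C1q macrophage-like cells, against 21.7 CPM (21.0 to 22.4) in alveolar-macrophage-like cells. The C1q macrophage-like cluster also had antigen presentation genes among its leading genes and was mixed, since at Leiden resolution 2.0 it gave 104 C1q macrophage-like and 45 conventional dendritic cell 1-like cells. Spred1 was then 110 CPM (90.4 to 133) in the C1q macrophage-like and 159 CPM (129 to 195) in the conventional dendritic cell 1-like cells. In the migratory dendritic cell-like cells it was 355 CPM (289 to 430) in filtered air, 314 CPM (238 to 408) at 1 ppm and 208 CPM (170 to 251) at 1.5 ppm, from 26, 14 and 49 cells. The 1.5 ppm value was the low one, from few cells of 1 pool. Dusp6 was scarce in the same cells, at 10.1 CPM (4.85 to 18.6), so these cells had the highest Spred1 level of any class and little Dusp6.

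Dusp6 was highest in cluster 15, which was named neutrophil-like and led by S100a9, S100a8 and Il1r2, at 110 CPM (82.3 to 144) from 53 UMIs in 107 cells, 95 of them from the 1.5 ppm library. The other neutrophil-like cluster, number 11, led by Ccl4, Ccl3 and Thbs1 and with 232 of its 233 cells from 1.5 ppm, had 10.6 CPM (3.43 to 24.7). In C1q macrophage-like cells Dusp6 was at 53.7 CPM (43.1 to 66.1) over all libraries, and at the finer resolution at 70.0 CPM (54.6 to 88.5) in the C1q macrophage-like and 30.2 CPM (17.9 to 47.7) in the conventional dendritic cell 1-like cells. By library, at the coarser resolution, it was 61.7 CPM (41.9 to 87.6) in filtered air, 40.3 CPM (20.1 to 72.1) at 1 ppm and 53.3 CPM (39.2 to 70.9) at 1.5 ppm, and all 3 intervals overlapped. Only at 1.5 ppm did the interval lie apart from that of the alveolar-macrophage-like class in the same library. These levels rest on 31, 11 and 47 UMIs, the 1 ppm level on the fewest. Whether C1q macrophage-like cells differed between air and ozone as alveolar-macrophage-like cells did was not tested.

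Phlda1 was highest in airway epithelial-like cells, at 355 CPM (320 to 393), with a UMI in 43 of 144 cells. This cluster was mixed too, and at resolution 2.0 it gave 100 airway epithelial-like cells with 76.6 CPM of Phlda1 (50.9 to 111) and 44 alveolar epithelial-like cells with 506 CPM (454 to 563), 39 of these from the 1.5 ppm library. The members that were nearly absent from macrophages were found there too, mostly in the alveolar epithelial-like cells, which held 38 of the Spry2 and 15 of the Dusp4 UMIs. Over the 144 cells Spry2 had 44 UMIs, 42.3 CPM (30.7 to 56.7), and 11 UMIs in 96 T cell-like cells, 26.9 CPM (13.4 to 48.1), against 3 UMIs in all 11104 alveolar-macrophage-like cells. Dusp4 had 15 UMIs in airway epithelial-like cells (14.4 CPM, 8.06 to 23.8) and 4 in T cell-like cells, against 4 in alveolar-macrophage-like cells. Etv5 had 13.9 CPM (8.80 to 20.8) in C1q macrophage-like cells, against 1.40 CPM (1.23 to 1.58) in alveolar-macrophage-like cells. At resolution 2.0 it had 26.8 CPM (15.3 to 43.6) in the conventional dendritic cell 1-like and 7.0 CPM (2.81 to 14.4) in the C1q macrophage-like cells. Within the alveolar-macrophage-like class the summed airway epithelial markers were 247 CPM in filtered air, 180 at 1 ppm and 230 at 1.5 ppm. The summed neutrophil markers were 67.2, 59.9 and 53.1 CPM. This sum includes Csf3r, which was itself lower at 1.5 ppm, as given below, and 8 of its 12 markers were below 1 CPM in filtered air. It therefore cannot show whether stray neutrophil RNA differed between libraries. The part of such RNA in the members' levels was not tested.

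**Figure D4:**
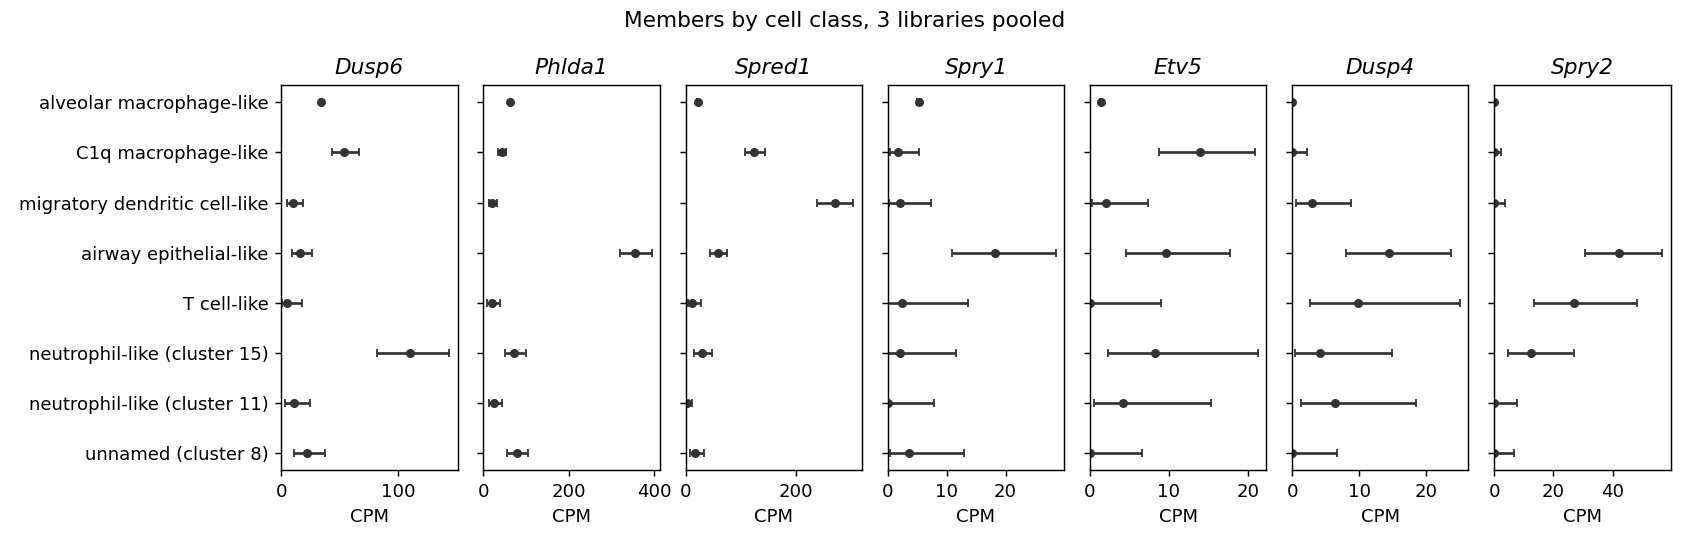
Level of each member (horizontal axis, CPM, a separate scale for each gene) in 8 cell classes (vertical axis) with the filtered air, 1 ppm and 1.5 ppm libraries pooled. Points are the pooled level and bars are exact Poisson 95% intervals; Spred1 peaked in migratory dendritic cell-like cells at 270 CPM, Phlda1 in airway epithelial-like cells at 355 CPM, Dusp6 in neutrophil-like cluster 15 at 110 CPM, and Spry2 was near 0 in both macrophage classes.

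Other genes of the pathway, from lists drawn up with earlier results known, are given by role. Of the remaining Sprouty and Spred genes only Spred2 was measured, with 748 UMIs in filtered air, 499 at 1 ppm and 1194 at 1.5 ppm, and ratios to filtered air of 0.891 (0.794 to 0.999) at 1 ppm and 0.882 (0.804 to 0.968) at 1.5 ppm. Of 8 other MAPK phosphatases 6 were measured. At 1 ppm 1 of them, Dusp16, which acts on JNK and p38, was 1.5-fold lower, at 31.4 CPM against 60.4 CPM in filtered air, a ratio of 0.519 (0.485 to 0.556). At 1.5 ppm Dusp16 was at 47.9 CPM, which is 1.53-fold (1.43 to 1.63) above 1 ppm, so it differed between the doses where Dusp6 did not. Dusp1, the broad nuclear phosphatase, was 0.730 (0.681 to 0.782) of filtered air at 1 ppm and 0.734 (0.696 to 0.776) at 1.5 ppm, and Dusp5, a nuclear phosphatase specific for ERK, 0.943 (0.886 to 1.00) and 0.798 (0.758 to 0.840), all within 1.5-fold.

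Among 16 other genes induced by ERK, 7 were measured at 1 ppm and 9 at 1.5 ppm. At 1 ppm none of the 7 was 1.5-fold apart from filtered air, where 1.19% of all measured genes were 1.5-fold higher. At 1.5 ppm 2 were higher and none lower, where 11.2% of all measured genes were 1.5-fold higher. These were Lif, a cytokine of the interleukin 6 family, at 133 UMIs against 27 in filtered air (2.72-fold, 1.79 to 4.28), and Ccnd1, cyclin D1, at 92 against 33 UMIs (1.54-fold, 1.03 to 2.37). At 1 ppm Lif had 41 UMIs, too few to count as measured, and stood at 2.03-fold (1.22 to 3.43) of filtered air. Ccnd1 was also higher at 1.5 ppm than at 1 ppm, by 1.73-fold (1.08 to 2.89), as were 9.71% of all measured genes by 1.5-fold. The immediate early gene Egr1 was 0.959 (0.716 to 1.28) of filtered air at 1 ppm and 1.28-fold (1.03 to 1.60) above it at 1.5 ppm, and Myc 0.671 (0.610 to 0.737) and 0.771 (0.718 to 0.828). Genes described as ERK outputs therefore did not share 1 direction in these libraries.

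All 32 genes of the cascade itself were measured, and 25 of 32 lay below a log2 ratio of 0 at 1 ppm and 27 of 32 at 1.5 ppm, where 58.9% and 55.2% of all measured genes did. Their median log2 ratio was -0.12 at 1 ppm and -0.23 at 1.5 ppm, beside -0.05 over all measured genes in both. None was 1.5-fold apart from filtered air at 1 ppm. At 1.5 ppm 1 was, Mapk3, which encodes ERK1, at 202 CPM against 308 CPM in filtered air, a ratio of 0.656 (0.642 to 0.670). For comparison, the 13 measured genes of the p38 and JNK cascades had none past 1.5-fold at either dose and medians of -0.18 and -0.26.

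Of 25 receptors upstream of ERK, 13 were measured at 1 ppm and 14 at 1.5 ppm. None was 1.5-fold apart at 1 ppm, and at 1.5 ppm only Csf3r, the G-CSF receptor, was lower, at 15.2 CPM against 32.2 CPM in filtered air, a ratio of 0.474 (0.440 to 0.510). Csf3r was also lower at 1.5 ppm than at 1 ppm (0.639, 0.586 to 0.696). The GM-CSF receptor chains were close to filtered air, with Csf2rb at 1.07-fold (1.05 to 1.09) and Csf2ra at 0.897 (0.870 to 0.925) of filtered air at 1.5 ppm. The CSF-1 receptor gene Csf1r was 1.18-fold (1.12 to 1.24) above filtered air at 1 ppm and 0.974 (0.931 to 1.02) of it at 1.5 ppm. None of the measured receptors was thus past 1.5-fold from filtered air at both doses, and 12 of the 25 at 1 ppm and 11 at 1.5 ppm had too few UMIs to be measured.

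Of 23 ligands 9 were measured at 1 ppm and 10 at 1.5 ppm. Pdgfb, a platelet-derived growth factor chain, was 1.5-fold lower at both doses, with 100 UMIs in filtered air, 43 at 1 ppm (a ratio of 0.574, 0.392 to 0.829) and 99 at 1.5 ppm (0.547, 0.410 to 0.730). At 1.5 ppm 4 of 10 were 1.5-fold higher, where 11.2% of all measured genes were: the interleukin 6 family cytokine Osm (3.56-fold, 3.10 to 4.11), the epidermal growth factor receptor ligands Ereg (2.87-fold, 1.99 to 4.25) and Areg (2.24-fold, 1.79 to 2.83), and Vegfb (1.78-fold, 1.64 to 1.92). Osm, Ereg and Areg were also at least 1.5-fold higher at 1.5 ppm than at 1 ppm, where 9.71% of all measured genes were. Fgf1, a fibroblast growth factor, was lower at 1.5 ppm than at 1 ppm (0.497, 0.439 to 0.562). Dusp6 did not differ detectably between the 2 ozone libraries, and a relation between its level and these ligands was not tested.

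**Figure D5:**
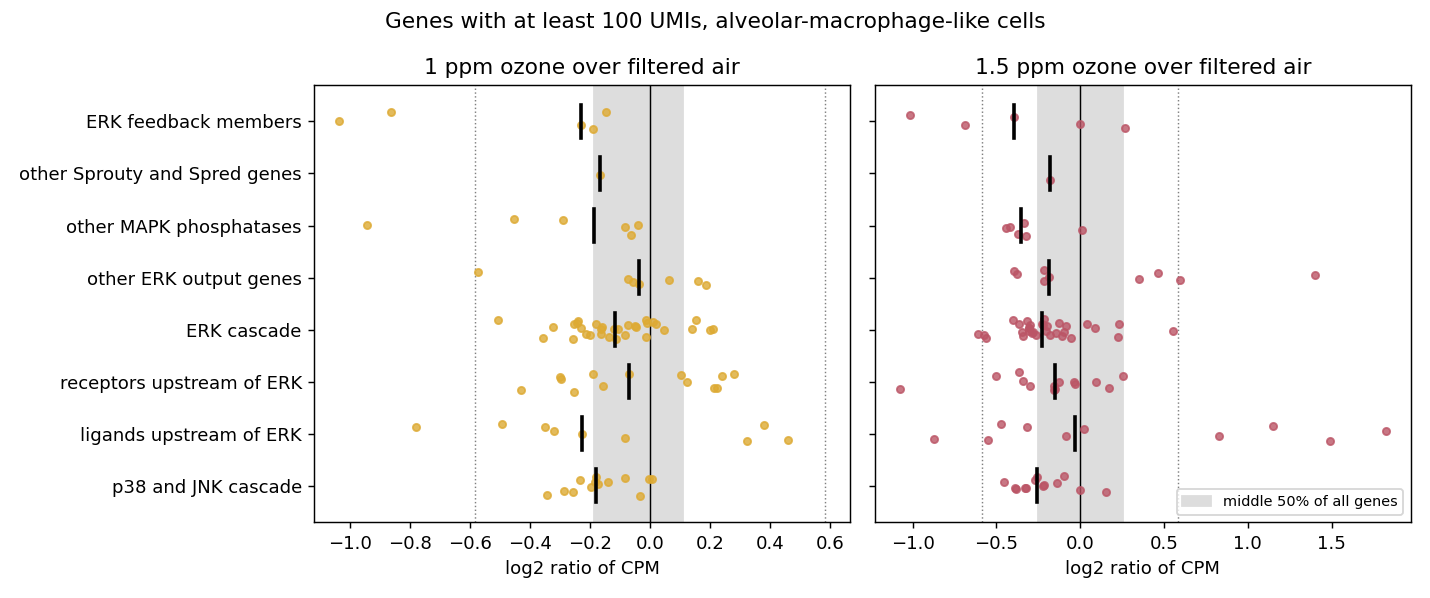
Log2 ratio of CPM for ozone over filtered air (horizontal axis) of each gene with at least 100 UMIs over both libraries, by gene list (vertical axis), at 1 ppm and at 1.5 ppm. Points are genes, black bars are list medians, the grey band holds the middle 50% of all measured genes and dotted lines mark 1.5-fold; Dusp6 (-1.04 and -1.01) and Phlda1 (-0.86 and -0.69) lie left of the lower dotted line in both panels, and 4 ligands lie right of the upper line at 1.5 ppm.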

How the data were processed

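UMI counts per gene and cell barcode were deposited as whole numbers, 1 table per library. Per the file headers, the authors used Cell Ranger 8.0.0. The submitters' processing notes name build GRCm39, and the labels' protocols a 3′ droplet kit. The treatment of intronic reads is not given in the sources. The libraries held 59359742 UMIs (filtered air), 42825676 (1 ppm) and 95403078 (1.5 ppm).

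Barcodes were filtered as stated in the report. Scrublet marked 3, 15 and 0 cells, which were removed, but so few is a failed call, and other doublets were left in the 12279 clustered cells. Cells were clustered with scanpy 1.11.5 on 2000 variable genes, without any gene of the ERK lists, with 30 principal components, 15 neighbours and Leiden resolution 1.0 (leidenalg 0.10.2), into 19 clusters. Clusters took a name ending in "-like" from marker lists by a scoring rule set after the data were seen. 1 cluster stayed unnamed. UMIs were summed per library and class. Log2 ratios add 1 UMI to each sum. Levels have exact Poisson, ratios exact conditional and shares exact binomial (Clopper-Pearson) 95% intervals, and the upper limit of a count of 0 is 3 counts. The calculation was tested on simulated data.

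The members, lists and markers were chosen with earlier results of these data known. All members are named, with list genes of at least 100 UMIs that differed 1.5-fold and the 10 genes most like Dusp6. Spred2, Dusp1, Dusp5, Egr1, Myc, Csf1r, Csf2ra and Csf2rb were named after their values were seen. Genomic spans for 1 alternative and promoters come from GRCm38, so no coordinates of the counted genes are given. Alternatives covered cell filters, cell class, depth, scaling, pseudocount and minimum counts.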

Additional observations from a re-analysis of the deposited data

How the results depend on the processing

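No paired analysis was possible because each group was 1 pooled library, and for the same reason no replicate could be left out. Dusp6 was at least 1.5-fold lower in both ozone libraries under 17 of 18 alternatives, with log2 ratios between -1.18 and -0.93 at 1 ppm and between -1.19 and -0.90 at 1.5 ppm. Phlda1 was so under 17 of 18 at 1 ppm and 15 of 18 at 1.5 ppm. The exception for Dusp6 was the planned marker gate, which kept 44 cells in filtered air, 28 at 1 ppm and 276 at 1.5 ppm, with 2, 1 and 22 Dusp6 UMIs. Under it the log2 ratio of Dusp6 at 1.5 ppm was 0.33, and the number of members 1.5-fold lower was 0 at 1 ppm over filtered air and 2 at 1.5 ppm over 1 ppm (Spry1 and Etv5). With cells that had at least 10 alveolar macrophage markers, a gate added after seeing the data, the Dusp6 log2 ratio was -1.05 at 1 ppm and -1.01 at 1.5 ppm. At 1.5 ppm over filtered air 1 member was 1.5-fold lower when every deposited barcode was used and 1 among cells of 8000 to 16000 UMIs, since Phlda1 stood at log2 -0.51 and -0.53. Shares of cells depended on depth by construction. Thinned to 2000 UMIs, Dusp6 was found in 10.8% of filtered air, 5.43% of 1 ppm and 5.39% of 1.5 ppm cells, and Phlda1 in 15.7%, 8.45% and 9.98%. Unthinned, Dusp6 was found in 45.1%, 30.5% and 28.5%, and Phlda1 in 58.9%, 45.4% and 45.1%. Of all alternative values for the members and lists, 393 held, 100 moved and 1 reversed. At Leiden resolution 2.0, which divided the mixed clusters, Dusp6 was 70.0 CPM and Etv5 7.0 CPM in C1q macrophage-like cells, and Phlda1 was 76.6 CPM, Spry2 16.4 CPM and Dusp4 0 CPM in airway epithelial-like cells. Depth limits Etv5 and Spry1 in small clusters, and Dusp4 and Spry2 throughout.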

Other observations

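Barcodes above 10% mitochondrial UMIs, which stand in no comparison of the report, were more common after filtered air and 1 ppm than after 1.5 ppm, and Dusp6 and Phlda1 were also lower after ozone among them. Those that passed the limits on UMIs and genes numbered 1594 in filtered air, 842 at 1 ppm and 454 at 1.5 ppm, and the values here are theirs. Their median depth was 4868, 4789.5 and 2284.5 UMIs in that order. Dusp6 stood at 31.0 CPM (27.4 to 35.1) in filtered air, 18.7 CPM (14.9 to 23.2) at 1 ppm and 7.41 CPM (3.55 to 13.6) at 1.5 ppm, from 257, 84 and 10 UMIs. Phlda1 stood at 41.2 CPM (36.9 to 45.8) in filtered air, 20.7 CPM (16.7 to 25.4) at 1 ppm and 21.5 CPM (14.4 to 30.9) at 1.5 ppm. The lower level was not particular to these 2 members. Spred1 was lower too at 1 ppm, with a ratio to filtered air of 0.633 (0.488 to 0.815). Its ratio at 1.5 ppm, 0.901 (0.617 to 1.28), had an interval that includes 1. These barcodes were not divided into cell classes. Just inside the limit, at 8 to 10%, Dusp6 was at 35.3 CPM in filtered air, 24.3 CPM at 1 ppm and 20.1 CPM at 1.5 ppm. There the ratio of 1 ppm over filtered air, 0.687 (0.406 to 1.12), had an interval that includes 1. Just outside the limit, above 10 and up to 12%, Dusp6 was at 38.4 CPM, 14.3 CPM and 17.2 CPM in the same order.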
